A study of Mus musculus with 10 samples.

Results

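The genes described here are 5 markers of cell stress and survival, Mt2, Bcl2, Gadd45a, Ddit3 and Cebpb, out of 7383 genes to which the counts of this series could be assigned. They were chosen by function, as representatives of the metallothionein, anti-apoptotic, DNA damage and integrated stress responses, but with earlier results of these data known. RNA was sequenced from a small piece of cortex of 5 dTPR/dTPR mice, homozygous for an allele of Stip1 without the TPR1 domain of its protein STI1, and of 5 wt/wt mice, all on a C57BL/6 background. The dTPR/dTPR animals were 541 to 630 days old and the wt/wt animals 442 to 663 days. The design text calls the animals transgenic, and the labels give neither their sex nor the origin of the line. STI1 hands client proteins over between HSP70 and HSP90, and the genotypes are set side by side to ask whether stress markers differ in animals without TPR1.

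The 5 genes report on different kinds of damage. Metallothioneins are small cysteine-rich proteins that bind zinc and copper, and the transcription factor MTF1 and the glucocorticoid receptor switch Mt2 on. In brain, Mt2 is made mainly by astrocytes. BCL2 sits on the mitochondrial outer membrane and holds back the pore-forming proteins BAX and BAK. GADD45A is induced by p53 and other signals after DNA damage and slows the cell cycle. When the factor eIF2alpha is phosphorylated, most translation falls but ATF4 is made, and ATF4 induces Ddit3, which encodes CHOP. CHOP pairs with C/EBP proteins such as C/EBPbeta, the product of Cebpb.

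By their positions, most deposited counts appear to lie antisense to annotated genes, so each gene was read from the gene IDs that face it on the other strand. The strand setting of the counting is not given in the sources used here, so this assignment is inferred, and what every value below measures rests on it. A member took the counts of an ID if it held at least 90% of that ID's opposite exon bases in GENCODE M21 (build GRCm38), and each member held 100% of them. How much of a gene could be counted this way differed widely. Mt2 (ENSMUSG00000031762.7, chromosome 8, 94172664 to 94173568, plus strand) is faced by the antisense ID Gm45774 over 432 of its 588 exon bases, or 73.5%. Of those bases, 184 are 5' untranslated, 171 are coding and 77 belong to another of its transcripts. Gadd45a (ENSMUSG00000036390.8, chromosome 6, 67035096 to 67037457, minus strand) is faced by E230016M11Rik over 337 of 1764 exon bases, 238 of them coding. Cebpb (ENSMUSG00000056501.3, chromosome 2, 167688915 to 167690418, plus strand), a gene of a single exon, is faced by an exon of Tmem189 over 312 of 1504 bases, all of them coding. Bcl2 (ENSMUSG00000057329.7, chromosome 1, 106538178 to 106714274, minus strand) is faced by D630008O14Rik over 558 of 9157 exon bases, all in the 3' untranslated region. Ddit3 (ENSMUSG00000025408.15, chromosome 10, 127290774 to 127296288, plus strand) has the thinnest cover, 81 of 1713 exon bases. Of these, 68 lie at its 3' end opposite to Mars and 13 at its 5' end opposite to Gm4189.

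**Figure D1:**
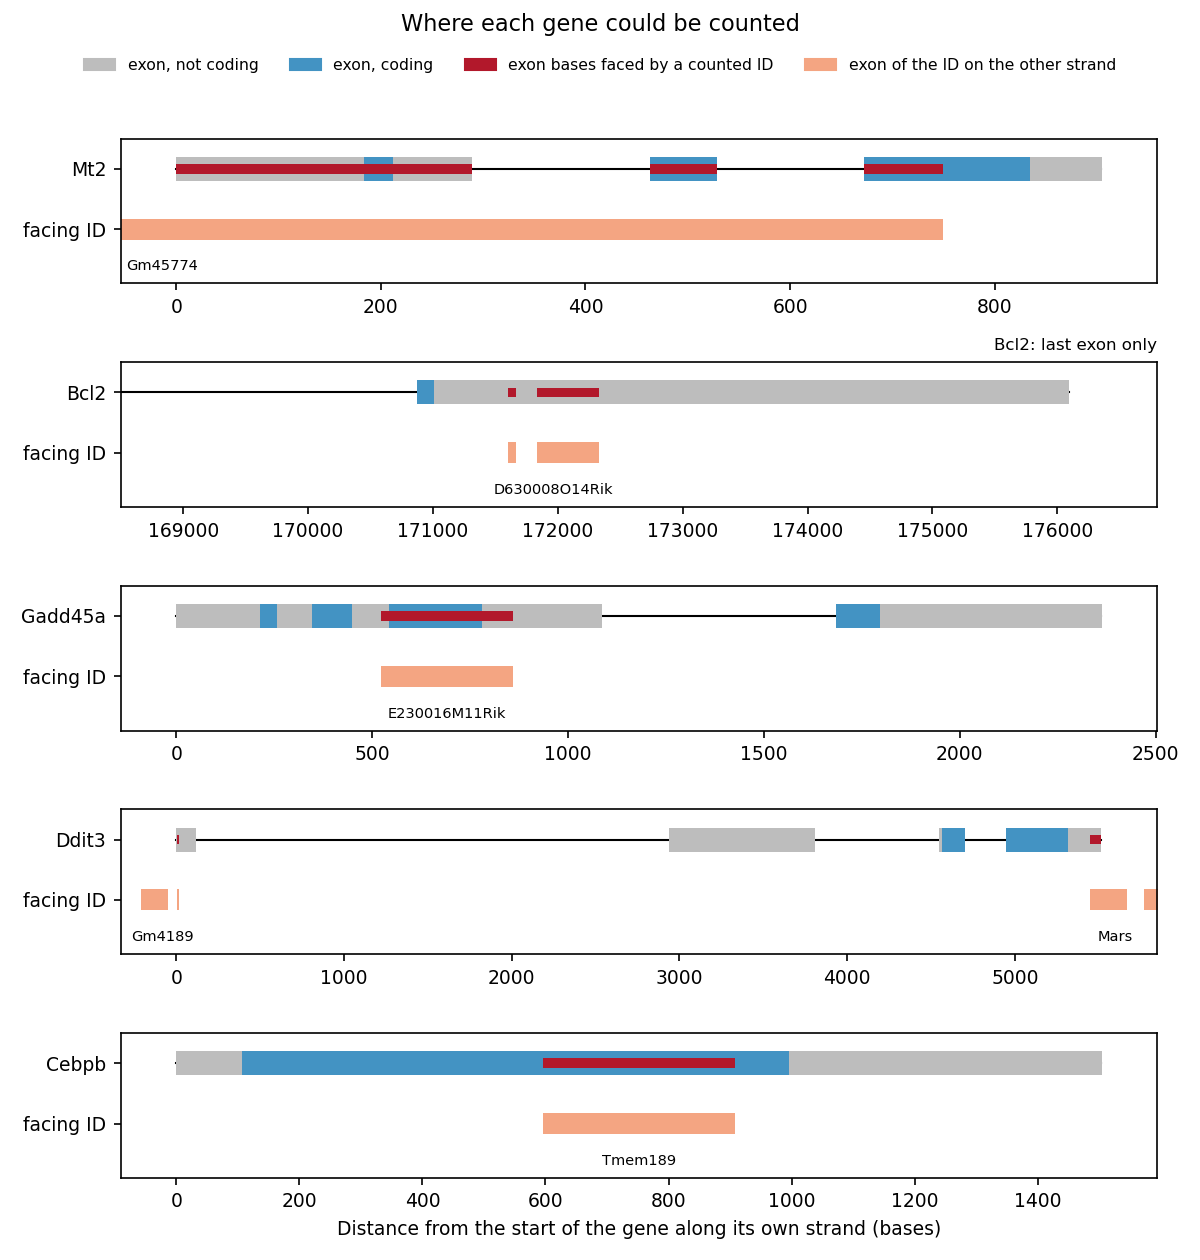
Exons of the 5 genes and of the IDs that face them, drawn along each gene's own strand as distance from its start in bases, with coding parts in blue and faced exon bases in red; for Bcl2 the region of the last exon is drawn. Mt2 is faced over 73.5% of its exon bases, Ddit3 over 81 of 1713 bases at its ends.

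The coding stretches of Mt2, Gadd45a and Cebpb that a counted ID faces are printed from the GENCODE M21 transcripts, 5' to 3'. The values below are counts of whole IDs and do not rest on these stretches alone. All faced bases, coding or not, make up 16.2% of the exon bases of Gm45774, 8.77% of E230016M11Rik and 9.56% of Tmem189. Capitals mark the bases faced by a counted ID and lower case the coding bases beside them that are not. The Mt2 line is its whole coding sequence of 183 bases without the stop codon (Mt2-201, GRCm38 chr8:94172848-94173424, plus strand, 3 exons joined), and 171 of them are faced. The Gadd45a line covers coding bases 117 to 414 of 495 (Gadd45a-201, chr6:67035743-67037039, minus strand, exons joined). The Cebpb line covers coding bases 460 to 759 of 888 (Cebpb-201, chr2:167689481-167689780, plus strand), 270 of them faced, and stops at a length of 300 bases.
Mt2: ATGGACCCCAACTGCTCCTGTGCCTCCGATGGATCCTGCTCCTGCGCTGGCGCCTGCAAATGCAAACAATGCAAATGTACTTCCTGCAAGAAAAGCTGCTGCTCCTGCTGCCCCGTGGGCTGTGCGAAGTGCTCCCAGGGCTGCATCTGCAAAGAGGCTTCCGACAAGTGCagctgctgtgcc
Gadd45a: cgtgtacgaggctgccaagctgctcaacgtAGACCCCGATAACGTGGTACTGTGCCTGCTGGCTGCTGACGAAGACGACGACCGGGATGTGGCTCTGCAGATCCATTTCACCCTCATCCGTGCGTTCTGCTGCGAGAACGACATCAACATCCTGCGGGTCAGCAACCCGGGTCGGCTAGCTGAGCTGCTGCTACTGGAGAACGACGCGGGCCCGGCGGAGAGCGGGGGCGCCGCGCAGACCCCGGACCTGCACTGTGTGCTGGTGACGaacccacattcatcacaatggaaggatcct
Cebpb: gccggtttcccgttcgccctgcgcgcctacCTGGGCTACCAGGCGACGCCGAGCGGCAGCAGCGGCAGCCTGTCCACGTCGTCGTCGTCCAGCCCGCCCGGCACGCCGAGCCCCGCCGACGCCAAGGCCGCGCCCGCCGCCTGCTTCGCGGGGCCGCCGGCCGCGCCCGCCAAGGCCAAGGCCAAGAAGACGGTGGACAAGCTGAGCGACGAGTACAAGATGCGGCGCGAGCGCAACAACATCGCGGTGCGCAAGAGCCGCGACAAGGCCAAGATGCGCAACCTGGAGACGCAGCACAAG

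The Mt2 promoter is printed too, because Mt2 carried most of the counts and because MTF1, which switches Mt2 on, binds metal-responsive elements. The window runs from 250 bases before to 50 bases after the RefSeq start (GRCm38.p6, chr8:94172368-94172667, plus strand). This start lies upstream of the GENCODE start of Mt2 at 94172664, which is used in the rest of the text. Capitals mark matches to the cores TGCACNC and TGCGCNC of the element that MTF1 binds, searched on both strands. There were 4 matches, 2 on each strand, starting at -223, -128, -50 and 5 relative to the RefSeq start. The match at 5 also lies upstream of the GENCODE start. At least 1 match was found in 25.7% of 32851 promoter windows of this length, and 4 or more in 0.517%. A match is a description of the letters and no evidence of binding. All 5 genes had a promoter entry. Ddit3 had 1 match, and no match was found in the windows of Bcl2, Gadd45a and Cebpb.
Mt2 promoter: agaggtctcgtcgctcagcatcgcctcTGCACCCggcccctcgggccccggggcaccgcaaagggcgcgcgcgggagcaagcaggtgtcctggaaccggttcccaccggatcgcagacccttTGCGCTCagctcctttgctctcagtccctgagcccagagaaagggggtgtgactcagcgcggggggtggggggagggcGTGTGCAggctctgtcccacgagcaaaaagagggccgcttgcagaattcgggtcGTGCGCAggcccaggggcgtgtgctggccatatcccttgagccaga

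Library totals ran from 689226 to 924559 counts in dTPR/dTPR and from 667751 to 927242 in wt/wt, which is shallow. A count of 3, taken as the limit below which a gene is not told from 0, was worth 3.24 to 4.49 CPM over the 10 libraries; CPM are counts scaled to a common library total. Reads carry no molecular identifiers, so such limits cover counting error only. Stip1 itself was counted 13 times in the 5 dTPR/dTPR and 12 times in the 5 wt/wt libraries at its own ID, which does not check the deletion. The excitatory cortical markers Neurod1 and Tshz2 could be tested, while Slc17a7, Tbr1 and Fezf2 have no facing ID. The summed level of 4 striatal markers ran from 388.3 to 2189 CPM in dTPR/dTPR and from 803.3 to 5306 CPM in wt/wt, where animals 3 and 2 were highest. In a piece of tissue, fewer cells of a type and less RNA per cell cannot be told apart.

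Among 2019 genes tested, edgeR called 0 at an adjusted p of 0.05, which is 0% of those tested, and 0 of the 5 stress and survival genes. DESeq2 and limma-voom also called 0. At an unadjusted p under 0.05 there were 57 genes in edgeR (2.82%), 80 in DESeq2 and 90 in limma-voom. Bcl2 was the 1 member among the 57, and among the 23 of them (1.14%) that were higher in dTPR/dTPR. It was also the 1 member among the 80 of DESeq2, while Mt2 was the 1 member among the 90 of limma-voom. All 5 members passed the filter on low counts. Log2 fold changes of dTPR/dTPR over wt/wt were positive for 4 members (50.2% of all genes tested) and negative for Ddit3. No member had groups without overlap, as 0.396% of all genes tested did. That a gene missed the threshold does not show that its level was alike in both genotypes, so the 95% interval of each fold change is given with it.

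Mt2 was by far the most counted of the 5. It had 1603, 2188, 1811, 2761 and 1947 CPM in dTPR/dTPR animals 1 to 5, against 1425, 1111, 2029, 1761 and 1802 CPM in wt/wt animals 1 to 5. Animals 4 and 2 of dTPR/dTPR stood above every wt/wt library and wt/wt animals 1 and 2 below every dTPR/dTPR library, and the rest overlapped. The means were 2062 ± 445 CPM in dTPR/dTPR and 1626 ± 360 CPM in wt/wt (SD, n = 5 each; two-sided exact permutation test, p = 0.13). The log2 fold change was 0.34 ± 0.18 (SE; unadjusted p = 0.073, adjusted p = 0.999 in edgeR), with a 95% interval of -0.03 to 0.71, that is, from 0.976-fold to 1.64-fold. This was the narrowest interval of the 5 genes. Without dTPR/dTPR animal 4, the highest library, the log2 fold change was 0.21. The unadjusted p of Mt2 was 0.033 in limma-voom and 0.095 in DESeq2. In edgeR it was 0.024 without a filter, 0.046 at 1 CPM in 5 libraries and 0.083 with age in the model. With 1 library left out it ran in edgeR from 0.024 (without wt/wt animal 3) to 0.25 (without dTPR/dTPR animal 4). Counts at the own ID of Mt2 came to 0 in dTPR/dTPR and 2 in wt/wt libraries, against 8095 and 6657 at the ID that faces it. The other metallothioneins Mt1, Mt3 and Mt4 are faced by no counted ID. Of Gm45774's 2665 exon bases, 317 face introns of Mt2 and 1916 lie outside the gene, and the share of its counts from there was not tested. Astrocyte markers, of which 3 of 10 have a facing ID (Gfap and Aqp4 have none), summed to 141.9 to 406.3 CPM in dTPR/dTPR and 96.3 to 317.4 CPM in wt/wt. Their part in the Mt2 values was not tested.

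Bcl2 had the largest log2 fold change of the 5. It stood at 89.2, 66.0, 26.1, 38.9 and 76.6 CPM in dTPR/dTPR animals 1 to 5, against 29.2, 23.7, 30.6, 28.5 and 48.5 CPM in wt/wt animals 1 to 5. Animals 1, 5 and 2 of dTPR/dTPR lay above every wt/wt library, while animals 4 and 3 lay within the wt/wt range, animal 3 below the wt/wt mean. In counts these were 72, 46, 18, 36 and 58 reads in dTPR/dTPR and 21, 22, 27, 19 and 44 reads in wt/wt, all above the limit of 3. The means were 59.4 ± 26.2 CPM in dTPR/dTPR and 32.1 ± 9.52 CPM in wt/wt (SD, n = 5 each; two-sided exact permutation test, p = 0.079). The spread within dTPR/dTPR was close to the difference of 27.3 CPM. The log2 fold change was 0.88 ± 0.41 (SE; unadjusted p = 0.045, adjusted p = 0.999 in edgeR), with a 95% interval of 0.02 to 1.75. Among all genes tested, its p ranked 51. The unadjusted p in edgeR ran from 0.015 to 0.13 with 1 library left out, and was above 0.05 except without dTPR/dTPR animal 3, dTPR/dTPR animal 4 or wt/wt animal 5. It was 0.13 in limma-voom and 0.052 with age in the model. Of the 2056 exon bases of D630008O14Rik, 558 face the 3' untranslated region of Bcl2 and 1498 its introns, and 0 lie outside the gene. How the counts split between these bases was not tested. Of 12 oligodendrocyte markers 4 have a facing ID (Pdgfra was at 0, and Mbp and Mog have none). They summed to 1384 to 2301 CPM in dTPR/dTPR and 847.7 to 1581 CPM in wt/wt. Most of that sum was Bcas1, with means of 1770 CPM in dTPR/dTPR and 1145 CPM in wt/wt. Gpr17 averaged 115.6 CPM in dTPR/dTPR and 95.95 CPM in wt/wt, and Ermn 13.1 and 3.18 CPM. The part of these markers in the Bcl2 values was not tested. Bcl2's own ID held 8 counts in dTPR/dTPR and 4 in wt/wt.

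**Figure D2:**
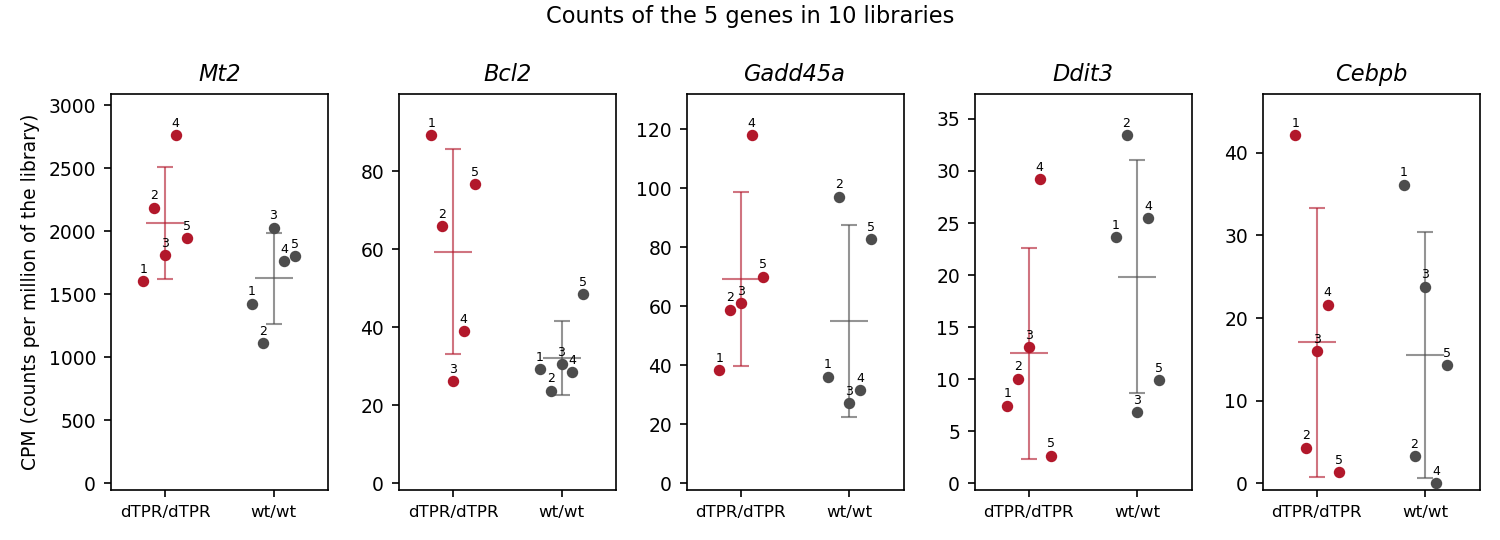
CPM of the 5 genes in each library (points, numbered by animal), with the mean and SD of the 5 dTPR/dTPR and 5 wt/wt libraries as bars; each panel has its own linear axis. Mt2 and Bcl2 averaged 2062 and 59.4 CPM in dTPR/dTPR against 1626 and 32.1 CPM in wt/wt, and in every panel the groups overlap.

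Gadd45a varied more within each genotype than between them. It had 38.4, 58.8, 60.9, 117.9 and 70.0 CPM in dTPR/dTPR animals 1 to 5, against 36.2, 97.1, 27.2, 31.4 and 82.6 CPM in wt/wt animals 1 to 5. The wt/wt libraries split into 3 of low level and 2, animals 2 and 5, above all but dTPR/dTPR animal 4. The means were 69.2 ± 29.6 CPM in dTPR/dTPR and 54.9 ± 32.5 CPM in wt/wt (SD, n = 5 each; two-sided exact permutation test, p = 0.47). The log2 fold change was 0.31 ± 0.43 (SE; adjusted p = 0.999 in edgeR), with a 95% interval of -0.60 to 1.22. It was 0.02 without dTPR/dTPR animal 4 and 0.67 without wt/wt animal 2. On the other strand, the own ID of Gadd45a held 26, 25, 15, 14 and 3 counts in dTPR/dTPR animals 1 to 5, against 0, 0, 14, 10 and 1 in wt/wt animals 1 to 5. With the strands swapped, these would be reads of RNA running the way of E230016M11Rik. That signal averaged 21.8 ± 12.9 CPM in dTPR/dTPR and 6.39 ± 8.26 CPM in wt/wt (SD, n = 5 each; two-sided exact permutation test, p = 0.048, not corrected). Fitted over all own IDs it had a log2 fold change of 1.77 ± 1.02 (SE; adjusted p = 0.997 in edgeR). In E230016M11Rik, 3504 of 3841 exon bases lie outside Gadd45a, so its counts need not all be Gadd45a reads.

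Ddit3 was near the detection limit. It had 6, 7, 9, 27 and 2 counts in dTPR/dTPR animals 1 to 5, against 17, 31, 6, 17 and 9 in wt/wt animals 1 to 5. The level passed the limit of 3 counts in 4 of 5 dTPR/dTPR and in 5 of 5 wt/wt libraries. The means were 12.5 ± 10.1 CPM in dTPR/dTPR and 19.8 ± 11.2 CPM in wt/wt (SD, n = 5 each; two-sided exact permutation test, p = 0.33). The log2 fold change was -0.67 ± 0.73 (SE; adjusted p = 0.999 in edgeR), with a 95% interval of -2.21 to 0.86, so 0.217-fold and 1.82-fold both lie inside it.

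The 2 IDs that face the ends of Ddit3 had differences of opposite sign, and neither passed a test. Of the 3423 exon bases of Mars, 3355 lie outside Ddit3, as do 418 of the 431 of Gm4189. The counts are those of whole IDs, so they need not be reads of Ddit3. Mars, which faces the 3' end, held 0, 2, 1, 19 and 2 counts in dTPR/dTPR animals 1 to 5. In wt/wt animals 1 to 5 it held 15, 31, 6, 8 and 9. Gm4189, which faces the 5' end, held 6, 5, 8, 8 and 0 counts in dTPR/dTPR, against 2, 0, 0, 9 and 0 in wt/wt. At Mars, all dTPR/dTPR libraries but animal 4 were under the limit of 3 counts and no wt/wt library was. At Gm4189, 4 of 5 dTPR/dTPR and 1 of 5 wt/wt libraries were above it. Exact permutation tests gave p = 0.12 for Mars and p = 0.30 for Gm4189 (two-sided, n = 5 each). Neither ID passed the filter on low counts alone. With no filter, a setting chosen after seeing the data, edgeR gave log2 fold changes of -1.50 ± 1.07 at Mars (SE; adjusted p = 0.476) and 1.17 ± 1.60 at Gm4189 (SE; adjusted p = 0.777). Mars encodes the cytosolic methionyl-tRNA synthetase, and its exons overlap the last 68 bases of Ddit3 on the other strand. Ddit3's own ID, which faces Mars over 84.0% of its opposite bases, held 161 counts in dTPR/dTPR and 156 in wt/wt libraries, or 40.3 ± 19.97 CPM in dTPR/dTPR and 37.8 ± 13.5 CPM in wt/wt (SD, n = 5 each; two-sided exact permutation test, p = 0.83). Mars and Tmem189 are protein-coding themselves, and what part of their counts are reads of their own mRNA was not tested. For scale, protein-coding IDs with no gene on the other strand within 5 kb had a median of 0 counts over the 10 libraries together, and 1.33% of these 9069 IDs had at least the 93 counts of Mars. These IDs were not matched to Mars in expression, so the share does not show whose reads its counts are.

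**Figure D3:**
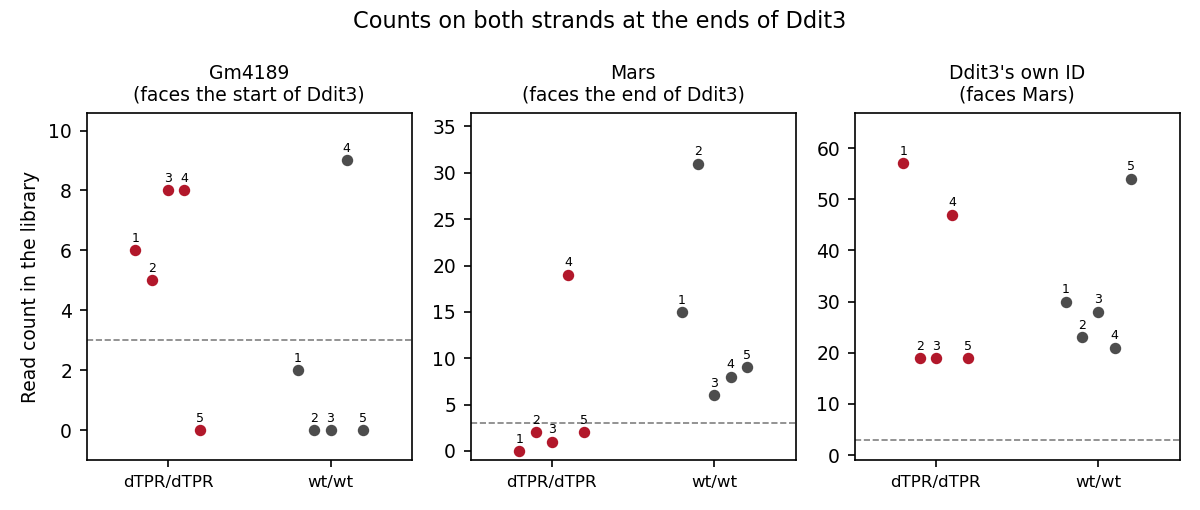
Read counts at the 2 IDs that face the start and the end of Ddit3 and at the own ID of Ddit3, per library (points, numbered by animal), with the limit of 3 counts as a dashed line. At Mars 4 of 5 dTPR/dTPR libraries are under the line, at Gm4189 4 of 5 wt/wt libraries.

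Cebpb had 34, 3, 11, 20 and 1 counts in dTPR/dTPR animals 1 to 5, against 26, 3, 21, 0 and 13 in wt/wt animals 1 to 5. In both genotypes 3 of 5 libraries were above 3 counts, and the 0 in wt/wt animal 4 allows up to 4.49 CPM. The means were 17.1 ± 16.3 CPM in dTPR/dTPR and 15.5 ± 14.9 CPM in wt/wt (SD, n = 5 each; two-sided exact permutation test, p = 0.85). The spread in each genotype was about as large as the mean. The log2 fold change was 0.14 ± 0.94 (SE; adjusted p = 0.999 in edgeR), with a 95% interval of -1.83 to 2.12. Its sign turned when dTPR/dTPR animal 1 (-0.50), wt/wt animal 2 (-0.11) or wt/wt animal 4 (-0.16) was left out. In Tmem189, 2953 of 3265 exon bases lie outside Cebpb, so its counts need not all be Cebpb reads. Of IDs with no gene on the other strand, 0.97% of the protein-coding ones had at least the 132 counts of Tmem189. They were not matched to Tmem189 in expression, so this share does not show whose reads its counts are.

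**Figure D4:**
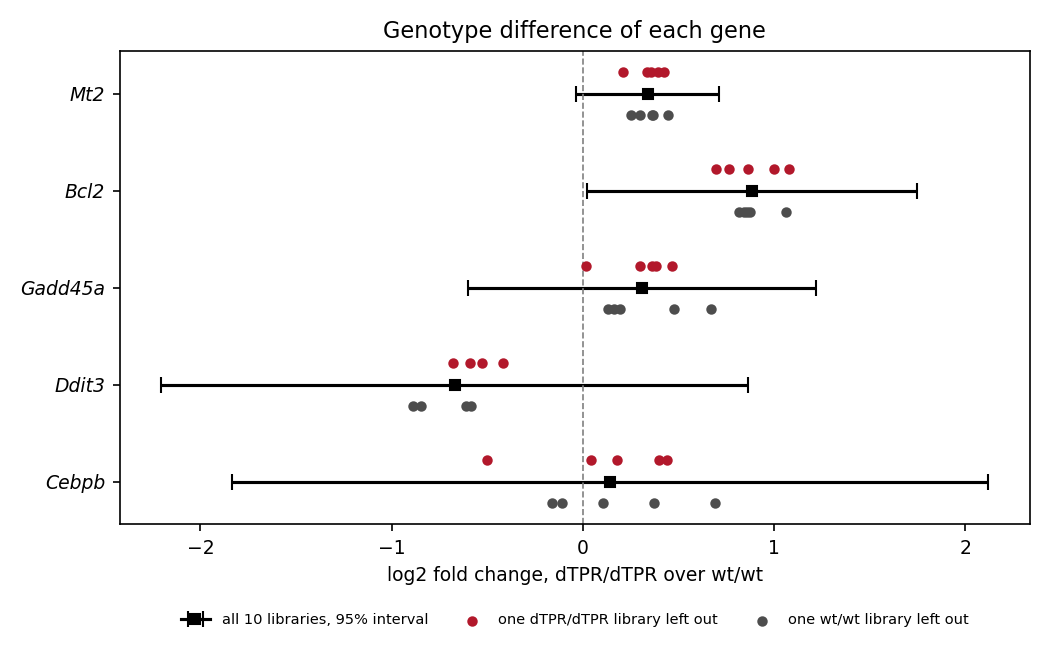
Log2 fold change of dTPR/dTPR over wt/wt for each gene (squares, with 95% intervals from edgeR), and the values with 1 library left out (red points for dTPR/dTPR libraries, grey points for wt/wt libraries); Ddit3 failed the filter without dTPR/dTPR animal 4 and without wt/wt animal 2. The interval of Bcl2, not adjusted for the number of genes tested, runs from 0.02 to 1.75 and the other 4 cross 0.

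Levels were also compared per length, as mean CPM over the 10 libraries for each kb of faced exon. On this scale Mt2 stood at 4268, Ddit3 at 199.5, Gadd45a at 184.1, Bcl2 at 82.0 and Cebpb at 52.2 CPM per kb. The counts are those of whole IDs, while the length is that of the faced bases alone. Faced bases make up 16.2% of Gm45774's exon bases (Mt2), 27.1% of D630008O14Rik (Bcl2), 8.77% of E230016M11Rik (Gadd45a) and 9.56% of Tmem189 (Cebpb). Ddit3's place rests on 81 bases. The share of counts from outside the faced bases was not tested for any gene, so this order cannot be read as an order of levels. The members did not rise and fall together across animals. After subtracting each genotype's mean, Pearson's r of log2 CPM over the 10 libraries lay between -0.18 and 0.03 for all pairs without Ddit3. Ddit3 had r = 0.40 with Gadd45a and r = -0.65 with Bcl2. These values share library depth and are given as description.

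The genes whose level followed each member most closely over the 10 libraries were picked from all tested genes of at least 50 CPM, by the same measure. Mt2 was followed by Abcb9 (r = 0.869), Hnrnpf (0.816) and Vps4a (0.786). For Bcl2 they were Sun2 (0.784), Focad (0.771) and Ube4b (0.771). For Gadd45a they were Washc2 (0.931), Gnptab (0.893) and Gng3 (0.890). Ddit3 was nearest to Ube2d3 (0.797), Tsr1 (0.795) and Ercc2 (0.723), and Cebpb to Pkmyt1 (0.877), Mroh1 (0.869) and Cry2 (0.853). The highest of many correlations over 10 points is large by selection.

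The pathways around the 5 genes were described through 10 lists with 207 different genes. An ID faces 51 of these genes, 45 were counted at least once, and 26 could be tested. Of the 26, 0 passed the threshold in edgeR, 16 had positive and 10 negative log2 fold changes, and 2, Bcl2 and Bak1, had an unadjusted p under 0.05. The 26 include the 5 genes described above, all positive but Ddit3, so these counts are not separate from theirs. Over all 2019 genes tested, 50.2% had a positive log2 fold change and 2.82% an unadjusted p under 0.05 in edgeR. The median log2 fold change of the 26 was 0.09, against 0.00 over all 2019.

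In the BCL2 family 6 of 25 genes were tested and 0 passed, with 4 positive and 2 negative fold changes and a median of 0.15. Bak1, read at Ggnbp1 over 437 bases, encodes the pore-forming death effector BAK that BCL2 family guardians restrain. It had 71.9, 91.8, 92.9, 94.1 and 71.3 CPM in dTPR/dTPR animals 1 to 5. In wt/wt animals 1 to 5 it had 108.5, 137.0, 66.8, 247.1 and 169.7 CPM. All wt/wt libraries but animal 3 lay above every dTPR/dTPR library. The log2 fold change was -0.78 ± 0.30 (SE; unadjusted p = 0.019, adjusted p = 0.999 in edgeR), and -0.53 without wt/wt animal 4. Bnip3, a mitophagy receptor induced by hypoxia, was the most counted of the family, at 908.4 ± 156.1 CPM in dTPR/dTPR and 786.9 ± 189.6 CPM in wt/wt (SD, n = 5 each). Its log2 fold change was 0.20 ± 0.17. Bax, Bcl2l1 and Mcl1 are faced by no counted ID.

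Of 22 caspase and inhibitor genes 4 were tested and 0 passed, 3 of them positive, with a median of 0.16. Htra2, a mitochondrial protease released in apoptosis, was at 113.2 ± 41.8 CPM in dTPR/dTPR and 96.0 ± 23.5 CPM in wt/wt. Diablo, whose product blocks caspase inhibitors, had a log2 fold change of 0.15 ± 0.38. Of 37 genes of the GADD45 family and the p53 or DNA damage response 5 were tested and 0 passed, 2 positive and 3 negative, with a median of -0.01. H2afx, which encodes the histone H2A.X that is phosphorylated at DNA breaks, had a log2 fold change of 0.51 ± 0.36. Ddb2, a DNA damage sensor, was at -0.35 ± 0.34. Gadd45gip1, whose product binds GADD45 proteins, was at 386.6 ± 136.4 CPM in dTPR/dTPR and 382.0 ± 62.5 CPM in wt/wt, with a log2 fold change of -0.01 whose sign turned under several settings. Cdkn1a, Mdm2 and Trp53 are faced by no counted ID.

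Of 41 integrated stress response genes 5 were tested and 0 passed, 3 positive and 2 negative, with a median of 0.08. The most counted was Eif2ak1, which encodes the eIF2alpha kinase HRI, at 133.9 ± 38.2 CPM in dTPR/dTPR and 161.8 ± 61.3 CPM in wt/wt (log2 fold change -0.28 ± 0.29). The central factor Atf4 and its targets Atf3, Trib3, Chac1 and Asns have no facing ID. By symbol alone, 6 genes were listed as the C/EBP family, of which 3 were tested, 0 passed and all 3 were positive. Shared symbols need not mean related proteins. Ddit3, whose product CHOP pairs with C/EBP proteins, is not among the 6 and was at -0.67. Cebpa had a log2 fold change of 0.87 ± 0.57 (unadjusted p = 0.14), with 9.91, 27.2, 15.96, 48.7 and 74.0 CPM in dTPR/dTPR animals 1 to 5 against 13.5 to 26.4 CPM in wt/wt. The height of that mean rests on dTPR/dTPR animals 4 and 5. Cebpz was at 0.03 ± 0.42, with a negative sign when any of 5 libraries was left out.

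The remaining stress lists were nearly unmeasured. Of the unfolded protein response, Hsp90b1, the HSP90 of the endoplasmic reticulum, was the 1 of 25 genes tested, at 1005 ± 194 CPM in dTPR/dTPR and 1028 ± 91 CPM in wt/wt (log2 fold change -0.04 ± 0.15). Of 19 oxidative stress genes, G6pdx had a log2 fold change of -0.30 ± 0.84 and Keap1 0.06 ± 0.45. Mt2 was the 1 tested of 8 metallothionein and zinc genes and of 15 glucocorticoid response genes. Of 17 heat shock genes 5 have a facing ID and 0 passed the filter. Hspa1a, the inducible HSP70, was counted 28 times in dTPR/dTPR and 27 times in wt/wt libraries.

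**Figure D5:**
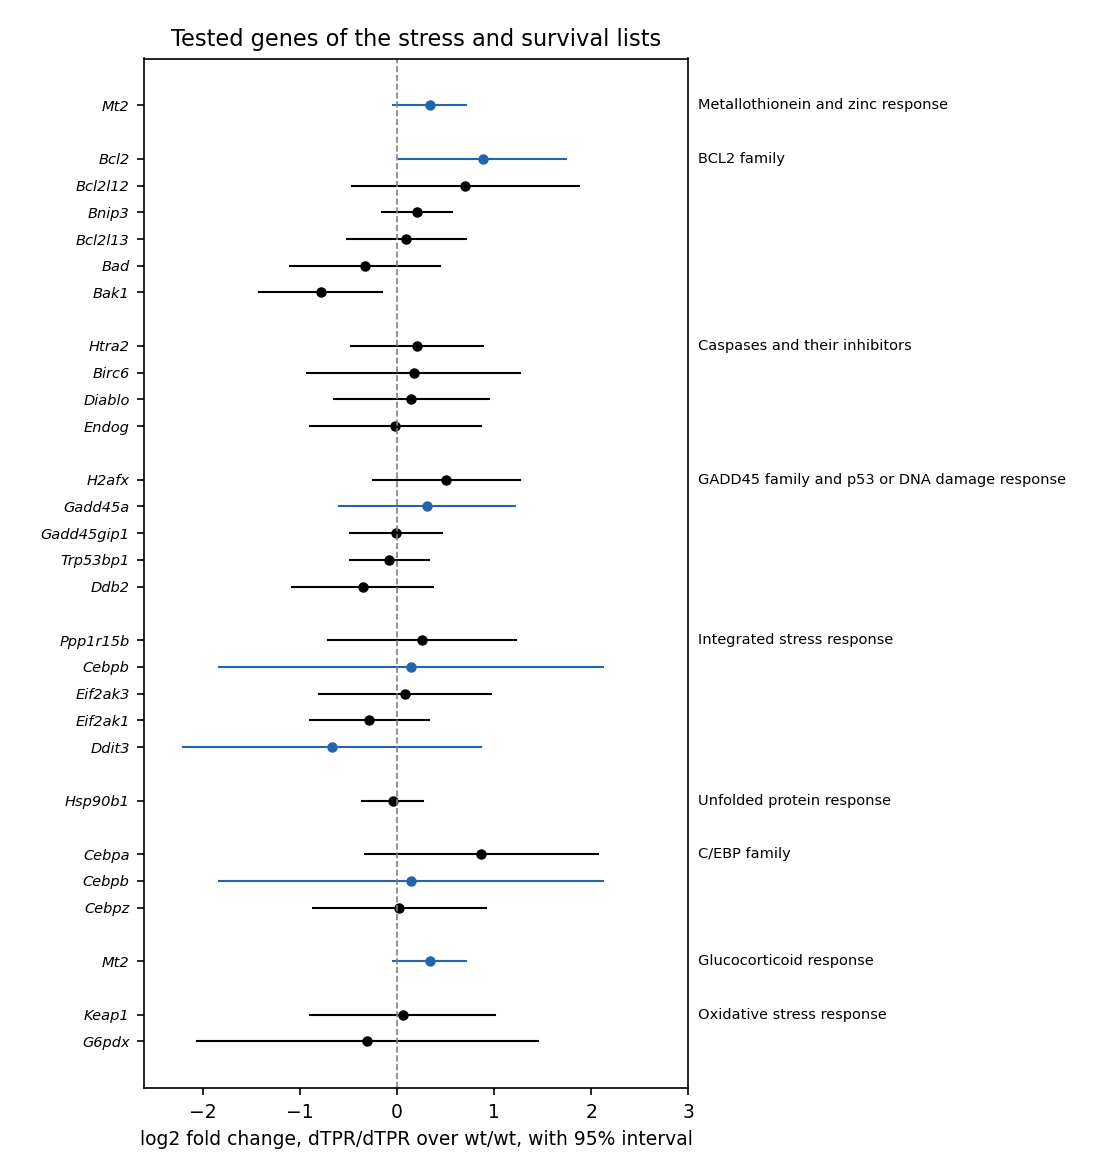
Log2 fold change of dTPR/dTPR over wt/wt with its 95% interval for the 26 tested genes of the stress and survival lists, grouped by list (genes of 2 lists appear in both; the 5 genes described here in blue). The intervals of Bcl2 (0.02 to 1.75) and Bak1 (-1.42 to -0.15) leave out 0, before any adjustment for the number of genes tested.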

How the data were processed

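RNA was harvested in TRIzol and turned into single-end poly(A)-terminated libraries (SENSE Total RNA-Seq kit), per the labels' protocols. The tools listed in the submitters' processing notes are TopHat, HTSeq and DESeq2, with build GRCm38.p5; their versions and the strand setting are not given in the sources used here. The authors deposited raw counts of reads for 53090 gene IDs in each library, and 0 rows name no gene.

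From these, 8188 IDs were assigned to 7383 opposite-strand genes with GENCODE M21, which took in 88.0% of counts. Each ID went whole to its gene, reads outside the shared bases included. CPM are per library total as deposited. The genotype test used edgeR 4.0.16 in R 4.3.3 (TMM, filterByExpr, robust quasi-likelihood, Benjamini-Hochberg over all genes tested) on all 10 libraries without covariates, and was tested on simulated data. Exact permutation tests over 252 arrangements cannot give a p under 0.0079. The genes named were the members, in each list the 2 tested genes with the smallest p and the most counted one, and for each member 3 genes nearest in pattern. Others, such as genes without a facing ID and Hspa1a, were named after their values were seen. The members and lists were chosen with earlier results of these data known. Alternatives were other scalings, filters and assignment rules, DESeq2 1.42.0, limma 3.58.1 (voom), animal age or number as a covariate, and leaving out libraries.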

Additional observations from a re-analysis of the deposited data

Results flagged for a closer look

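In 36 groups of 5 CPM values, 1 had a single animal far from the other 4, where chance alone gives about 1 in 20. Bcl2 stood at 48.5 CPM in wt/wt animal 5, above 23.7 to 30.6 CPM in the other wt/wt animals. Without that library its log2 fold change was 1.06.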

How the results depend on the processing

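0 genes were called under each scaling, DESeq2, limma-voom, age in the model, a filter of 1 CPM in 5 libraries (looser than that of edgeR), the other assignment rules, own IDs, without mitochondrial genes, without wt/wt animals 2 and 3, and with each library left out. Without a filter edgeR called 2 of 5176 genes, Fam184b and Prox1os, and 542 had an unadjusted p under 0.05. Deviations of same-numbered libraries correlated at -0.108 to 0.0975, and 3 libraries were closest to the other genotype's library of their own number. These values cannot show whether the animals were paired. With the animal numbers as a replicate block 0 genes were called in edgeR (50 at an unadjusted p under 0.05). Log2 fold changes were then 0.34 for Mt2, 0.80 for Bcl2, 0.40 for Gadd45a, -0.80 for Ddit3 and 0.11 for Cebpb.

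With 1 library left out, log2 fold changes ran from 0.21 to 0.45 for Mt2, 0.70 to 1.08 for Bcl2, 0.02 to 0.67 for Gadd45a, -0.89 to -0.42 for Ddit3 and -0.50 to 0.69 for Cebpb. Ddit3 failed the filter without dTPR/dTPR animal 4, without wt/wt animal 2 and without mitochondrial genes. Differences in CPM (dTPR/dTPR minus wt/wt) ran from 19.8 to 35.6 for Bcl2 (exact permutation p = 0.16 without dTPR/dTPR animal 1 and p = 0.032 without dTPR/dTPR animal 3) and from -4.70 to 6.73 for Cebpb. Signs of small values turned for Cebpz (-0.13 to 0.22), Diablo (-0.044 to 0.31), G6pdx (-1.17 to 0.020), Gadd45gip1 (-0.17 to 0.13), Hsp90b1 (-0.13 to 0.037) and Keap1 (-0.18 to 0.28).

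Gadd45gip1 also turned without a filter (0.023), at 1 CPM in 5 libraries (0.0053) and without mitochondrial genes (0.0030). Without wt/wt animals 2 and 3, Gadd45gip1 was at 0.17, Cebpz at -0.035 and Keap1 at -0.35. At own IDs, Ddit3 was at 0.11, Ddb2 at 0.12, Gadd45gip1 at 0.14 and Htra2 at -0.15. At Gm4189 alone, chosen after seeing the data, Ddit3 was at 1.17. The cause of these turns was not tested.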
